A study of Homo sapiens with 6 samples.

Results

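Small nucleolar RNA host genes are transcripts whose introns hold small nucleolar RNAs (snoRNAs). They were taken here as every gene of the deposited table named SNHG followed by a number, together with GAS5, ZFAS1, EPB41L4A-AS1 and DANCR. The rule found 29 rows among 58735 in all, under 28 symbols because SNHG28 is listed under 2 identifiers. RNA was sequenced from 6 libraries of colorectal cancer cells, 3 of which carried an shRNA against CNOT7 and 3 a control shRNA. The study's text names no irradiation for this RNA sequencing. CNOT7 is a catalytic subunit of the CCR4-NOT complex, which shortens the poly(A) tails of mRNAs. The labels name the cells SW480, whereas the study's text names HCT116 for this experiment. Which shRNA each knockdown library carried is not stated, and no label says that the libraries of a group came from separate cultures, so p-values measure the spread between these libraries, which may be technical.

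A host gene is spliced like other RNA polymerase II transcripts, and its snoRNAs are trimmed out of the excised introns. Box C/D snoRNAs guide 2′-O-methylation and box H/ACA snoRNAs guide pseudouridylation, mostly of ribosomal RNA, while small Cajal body RNAs (scaRNAs) guide the same modifications on spliceosomal RNAs. The spliced host RNA is often a substrate of nonsense-mediated decay (NMD), the pathway that removes transcripts with early stop codons, and several host genes start with the pyrimidine tract known from ribosomal protein mRNAs (the 5′ terminal oligopyrimidine, or TOP, tract).

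The host genes were read for such a tract at a single RefSeq start each. RefSeq sequences (GRCh38.p14) were matched by symbol for 24 of the host gene rows, and each window below runs from 10 bases before the start base through 20 bases from it. Capitals mark an unbroken run of C and T that opens with C at the start base and is at least 4 bases long. The windows belong to 5 host genes that passed the test described below and to the 3 with the highest level per length, and the gene, position and strand stand before each.
SNHG4, chr5:139274091-139274120, plus strand: ctcccggctgCCCTTTCCCCTCCggcctct
SNHG7, chr9:136728165-136728194, minus strand: ccttctcgtcCTCTgcgtgcgccggaggct
SNHG8, chr4:118278752-118278781, plus strand: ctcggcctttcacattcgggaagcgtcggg
SNHG10, chr14:95534853-95534882, minus strand: cttatgccggagcctcatcctactgcctta
EPB41L4A-AS1, chr5:112160516-112160545, plus strand: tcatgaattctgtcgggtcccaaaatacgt
SNHG5, chr6:85678714-85678743, minus strand: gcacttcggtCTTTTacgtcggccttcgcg
GAS5, chr1:173869026-173869055, minus strand: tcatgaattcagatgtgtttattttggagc
DANCR, chr4:52712384-52712413, plus strand: tgcgcgccccgcccttgcccagagtcttcc

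Of the 24 host gene rows, 8 had the tract (33.3%), compared with 5.45% of all 35116 RefSeq start sequences. By the same rule, 45 of 65 ribosomal protein symbols had a tract at any of their starts, so the rule does not find it in every such gene. The longest tract among the windows printed was that of SNHG4, at 13 bases. The GAS5 window lies 163 bases from the start in the table's annotation (GENCODE 29). For 5 host gene rows the RefSeq start was over 1000 bases away, among them SNHG12, which was counted with a tract at 1259 bases. A match or a missing match therefore speaks only for the letters at that base.

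The 6 libraries held between 23788451 and 29104872 counts. CNOT7 itself was at 169, 191 and 176 CPM (counts per 1000000 counts, scaled by the trimmed mean of M-values, TMM) in the control libraries and at 43.4, 47.2 and 38.6 CPM in the knockdown libraries, a log2 fold change of -2.05 ± 0.07 (SE) with an adjusted p of 2.64e-12. Of 8 colorectal epithelial markers, 7 passed the filter on low counts and KRT20 did not, with a summed level of 5550 to 5970 CPM in control and 5130 to 5680 CPM in knockdown libraries. Among them VIL1 and CDH1 rose (log2 fold change 0.72 and 0.51) and KRT19 and KRT8 fell (-0.18 and -0.15). The summed levels of the 4 immune markers were 0.215 to 0.7 CPM in control and 0.248 to 0.604 CPM in knockdown libraries. The 4 fibroblast markers summed to 7.09 to 9.5 CPM and 8.81 to 9.64 CPM, nearly all of it COL1A1, with COL3A1 and DCN at 0 counts, and the 3 endothelial markers to 1.64 to 2.33 CPM and 2.62 to 3.44 CPM. Their part in the differences below was not tested.

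Among the 22 host gene rows that passed the filter on low counts, 6 rose with CNOT7 knockdown and none fell at an adjusted p below 0.05 in edgeR's quasi-likelihood test over 17574 genes. The genes that rose were SNHG4, EPB41L4A-AS1, SNHG10, SNHG8, SNHG7 and 1 of the SNHG28 rows, by 22.2% to 57.1%. Each of the 22 reached the filter's level in libraries of both groups. Of all genes tested, 13.3% were called higher and 11.9% lower, and 27.3% of the tested host genes were higher. At an unadjusted p below 0.05 there were 8 higher and 3 lower host genes, and DESeq2 called 4 higher and 0 lower. The median log2 fold change was 0.115 over the tested host genes and 0.00393 over all tested genes, and the median size of the change, regardless of sign, was 0.167 and 0.177. The changes of the host genes were therefore small, and the largest among the 15 with a mean of at least 10 CPM was 0.453.

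**Figure D1:**
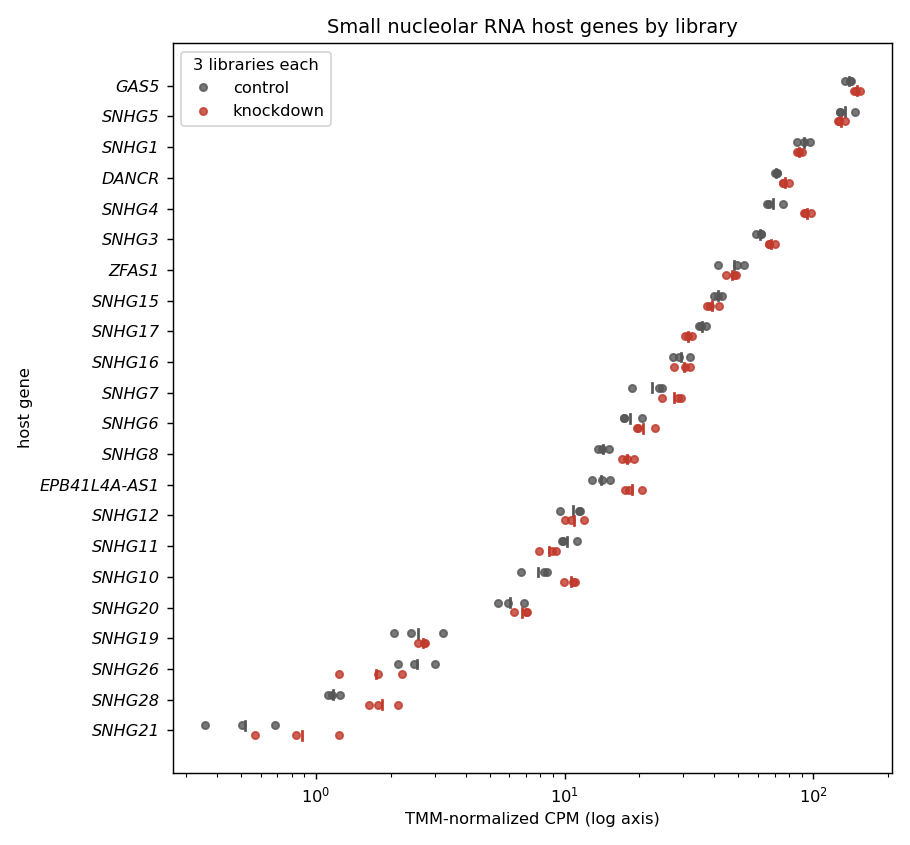
Level of each tested host gene in every library, in TMM-normalized CPM on a log axis, with 3 control libraries in grey, 3 knockdown libraries in red and a tick at each group mean. SNHG4 is the most abundant gene past the test, at 65.0 to 75.3 CPM in control and 92.0 to 98.1 CPM in knockdown libraries.

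SNHG4 (ENSG00000281398; chr5:139274102-139284899, plus strand of GRCh38), the host of the box H/ACA snoRNAs SNORA74A and SNORA74D, was the most strongly supported of the 6. Its level was 66.3, 75.3 and 65.0 CPM in the control libraries and 92.5, 98.1 and 92.0 CPM in the knockdown libraries. Every knockdown library was above every control library, and the log2 fold change was 0.45 ± 0.07 (SE; adjusted p = 7.1e-05, edgeR). With 1 library left out at a time it remained called in all 6 fits, at 0.411 to 0.52. Annotated exons of other genes covered 16.6% of its exonic bases, the largest overlap being with MATR3, an RNA-binding nuclear matrix protein gene on the same strand. The main MATR3 row averaged 5.30 CPM in control and 6.04 CPM in knockdown libraries (log2 fold change 0.19 ± 0.14, adjusted p = 0.342), and a second MATR3 row (ENSG00000280987) averaged 0.341 and 0.748 CPM, with every knockdown library above the control libraries (1.13 ± 0.45, adjusted p = 0.0765). How reads in exons shared by several genes were counted is not given, so these rows may not hold the full level of MATR3. Strand could not separate MATR3 from SNHG4 either.

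EPB41L4A-AS1 (ENSG00000224032; chr5:112160526-112164276, plus strand), the host of SNORA13, was at 12.9, 15.2 and 14.1 CPM in control and at 18.2, 20.6 and 17.5 CPM in knockdown libraries. The groups did not overlap, and the log2 fold change was 0.41 ± 0.10 (adjusted p = 0.00437, edgeR). Dropping any single library left the call in place, at 0.343 to 0.47. It lies antisense to EPB41L4A, a gene of the band 4.1 protein family, and 49.6% of its exonic bases are shared with that gene on the opposite strand. EPB41L4A averaged 67.4 CPM in control and 63.2 CPM in knockdown libraries, a log2 fold change of -0.09 ± 0.06 (adjusted p = 0.3). The strandedness of the library and of the counting is not stated, and without it reads of an antisense pair cannot be told apart.

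SNHG10 (ENSG00000247092; chr14:95532297-95534872, minus strand), the host of the Cajal body RNA SCARNA13, was at 8.48, 6.66 and 8.30 CPM in control and at 9.94, 10.8 and 11.1 CPM in knockdown libraries. The lowest knockdown library was above the highest control library, with a log2 fold change of 0.44 ± 0.12 (adjusted p = 0.0103, edgeR). It kept its call in all 6 fits with a library left out, at 0.336 to 0.499. Its exons share 20.1% of their bases with the antisense gene GLRX5, which encodes a mitochondrial protein of iron-sulfur cluster assembly. GLRX5 averaged 105 CPM in control and 107 CPM in knockdown libraries, with an adjusted p of 0.828.

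The other 3 calls did not hold in every fit with 1 library left out. SNHG8 (ENSG00000269893; chr4:118278709-118279823, plus strand), the host of SNORA24, was at 13.6, 15.1 and 14.1 CPM in control and 17.8, 17.0 and 19.0 CPM in knockdown libraries. The groups were apart, with a log2 fold change of 0.33 ± 0.09 (adjusted p = 0.0121, edgeR), and the adjusted p rose to 0.056 without control replicate 1, 0.0523 without control replicate 3 and 0.0518 without knockdown replicate 3.

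SNHG7 (ENSG00000233016; chr9:136721366-136728184, minus strand), the host of SNORA17A and SNORA17B, was at 24.8, 18.7 and 23.9 CPM in control and 28.5, 24.8 and 29.3 CPM in knockdown libraries. The lowest knockdown library and the highest control library were nearly level, and the log2 fold change was 0.29 ± 0.10 (adjusted p = 0.0434, edgeR). The adjusted p rose to 0.187 without control replicate 2, 0.0593 without control replicate 3, 0.178 without knockdown replicate 1, 0.133 without knockdown replicate 3 and 0.0615 in DESeq2. FAM69B, which encodes a protein kinase family member of the endoplasmic reticulum, has the largest overlap among the genes whose exons cover 31.4% of the SNHG7 exonic bases. FAM69B rose as well, from 14.02 to 17.92 CPM in the mean (log2 fold change 0.35 ± 0.10, adjusted p = 0.0146), and the counts of this antisense pair cannot be told apart without strand.

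The SNHG28 row that was called (ENSG00000256029; chr1:159834474-159873053, minus strand), which the table types as protein coding, was at 1.25, 1.12 and 1.16 CPM in control and 1.63, 2.14 and 1.78 CPM in knockdown libraries. The groups did not overlap, and the log2 fold change was 0.65 ± 0.23 (adjusted p = 0.0486, edgeR). The call was lost in all 6 fits with a library left out, with an adjusted p of 0.0655 to 0.154, and in DESeq2, where it was 0.164. Exons of other genes covered 55.5% of its exonic bases, in part those of the second SNHG28 row, ENSG00000188004, which was at 0 counts in every library.

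**Figure D2:**
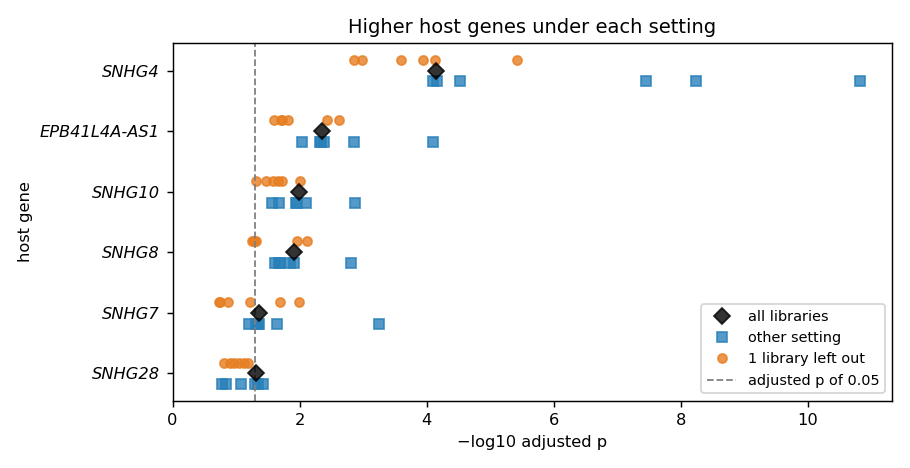
Evidence for the 6 host genes that were higher with knockdown, as the −log10 of the adjusted p with all libraries (diamonds), with 1 library left out (circles) and under the other settings (squares), and a dashed line at an adjusted p of 0.05. SNHG4, EPB41L4A-AS1 and SNHG10 stay to the right of the line in every fit, whereas SNHG8, SNHG7 and SNHG28 cross it.

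Among the host genes found by the rule, those with the highest level per length moved little. Per kilobase of exonic length, the control levels were highest for SNHG5 (47.9 ± 3.90 CPM per kb, SD, n = 3), GAS5 (38.2 ± 1.08), DANCR (31.0 ± 0.361), SNHG1 (24.4 ± 1.38) and ZFAS1 (21.3 ± 2.55). GAS5, which hosts 10 box C/D snoRNAs by RefSeq and is known as a growth arrest transcript, was at 140.0, 134 and 142 CPM in control and 148, 154 and 146 CPM in knockdown libraries. Its groups did not overlap, but the log2 fold change of 0.11 ± 0.05 missed the threshold (adjusted p = 0.165, edgeR). SNHG5, the host of SNORD50A and SNORD50B, was at 129, 128 and 147 CPM in control and 126, 134 and 128 CPM in knockdown libraries. Its groups overlapped, with a log2 fold change of -0.06 ± 0.06 (adjusted p = 0.547).

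SNHG1, which hosts SNORD22 and SNORD25 to SNORD31, was at 91.7, 96.7 and 86.3 CPM in control and 87.4, 86.2 and 89.7 CPM in knockdown libraries. The groups overlapped (log2 fold change -0.06 ± 0.06, adjusted p = 0.507, edgeR). ZFAS1, the host of SNORD12, SNORD12B and SNORD12C, was at 49.3, 52.7 and 41.5 CPM and at 44.8, 48.9 and 47.9 CPM (-0.02 ± 0.08, adjusted p = 0.887). All 3 knockdown libraries of ZFAS1 lay within the control range.

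DANCR, the host of SNORA26, was at 69.9, 71.4 and 71.3 CPM in control and 75.8, 80.3 and 75.6 CPM in knockdown libraries. SNHG3, the host of SNORA73A and SNORA73B, was at 61.9, 59.0 and 61.9 CPM and at 66.5, 70.1 and 66.3 CPM. Both had groups that did not overlap, and neither passed the test, with log2 fold changes of 0.12 ± 0.06 (adjusted p = 0.134, edgeR) and 0.15 ± 0.06 (adjusted p = 0.0811). GAS5, DANCR and SNHG3 were called higher with cyclic loess offsets, which remove a trend of the fold change with the level, at adjusted p = 0.0324, 0.0428 and 0.0295. They were also called higher with the replicate number as a block, at adjusted p = 0.0318, 0.0287 and 0.0127 (edgeR).

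SNHG17, the host of the SNORA71 family, was at 36.9, 34.6 and 35.3 CPM in control and 31.4, 30.4 and 32.5 CPM in knockdown libraries. Every knockdown library was below the control libraries, but the log2 fold change of -0.18 ± 0.07 did not pass (adjusted p = 0.0734, edgeR). SNHG15, the host of SNORA9, was at 42.8, 40.0 and 41.3 CPM and at 38.3, 37.4 and 41.7 CPM (-0.08 ± 0.07, adjusted p = 0.457). Its groups overlapped.

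SNHG16, the host of the SNORD1 family, was at 27.3, 28.8 and 32.0 CPM in control and 27.6, 30.6 and 32.1 CPM in knockdown libraries (0.03 ± 0.08, adjusted p = 0.812, edgeR). SNHG6, the host of SNORD87, was at 17.4, 17.4 and 20.4 CPM and at 19.6, 19.7 and 23.0 CPM (0.17 ± 0.10, adjusted p = 0.203). SNHG12, which hosts SNORA16A, SNORA44, SNORA61 and SNORD99, was at 11.4, 9.59 and 11.5 CPM and at 10.64, 10.04 and 12.02 CPM (0.01 ± 0.11, adjusted p = 0.979). The groups of all 3 overlapped.

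Of the tested host genes with a mean below 10 CPM over all 6 libraries that did not pass the test, SNHG11 averaged 10.2 CPM in control and 8.66 CPM in knockdown libraries, and SNHG20 6.06 and 6.77 CPM. SNHG19 averaged 2.57 and 2.69 CPM, SNHG26 2.54 and 1.74 CPM, and SNHG21 0.518 and 0.881 CPM. None of these 5 passed the test, with log2 fold changes from -0.54 for SNHG26 (adjusted p = 0.0958) to 0.78 for SNHG21 (adjusted p = 0.152). SNHG26, the host of SNORD93, was called lower with cyclic loess offsets (adjusted p = 0.0441) and without knockdown replicate 2 (adjusted p = 0.0319). The 7 host gene rows below the filter were SNHG14 (2 to 9 counts a library), SNHG22 (2 to 7), SNHG9 (2 to 4), SNHG25 (0 to 5), SNHG18 (0 to 4), and SNHG27 and the second SNHG28 row, both at 0 counts. Exons of other genes covered 100% of the exonic bases of that SNHG28 row, so its 0 may not measure its level.

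Without a threshold on p, the groups did not overlap for 9 host genes that were higher and 2 that were lower, the latter SNHG11 and SNHG17. Over all tested genes the groups stood apart for 20.6% in the higher and 18.2% in the lower direction. The summed level of all host genes was 831 ± 6.71 CPM (SD, n = 3) in control and 883 ± 16.0 CPM in knockdown libraries. As a share of the raw counts, without TMM scaling, it was 0.0808% to 0.0824% in control and 0.0882% to 0.0907% in knockdown libraries. The 4 most abundant genes held 52.4% of the summed level in control libraries.

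**Figure D3:**
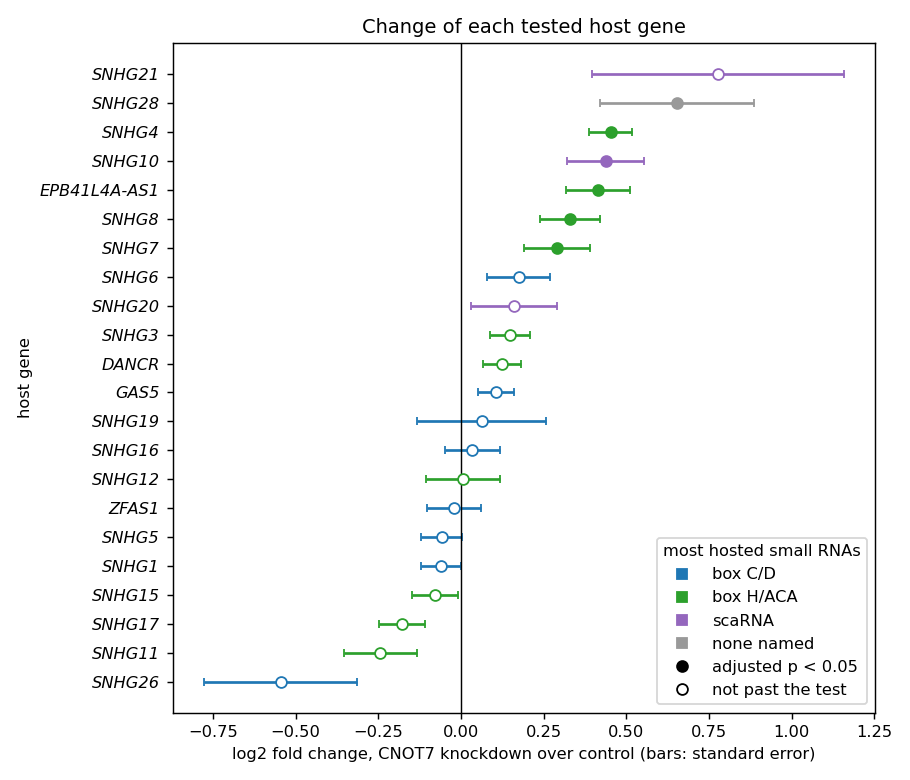
Log2 fold change of each tested host gene, knockdown over control, with its standard error, coloured by the kind of small RNA that makes up most of what it hosts and filled where the adjusted p is below 0.05. The 8 box C/D hosts are all open, while 4 of 10 box H/ACA hosts are filled, beside 13.3% of all tested genes called higher.

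Sorted by the small RNAs they hold, 0 of 8 tested box C/D hosts rose (edgeR), 4 of 10 box H/ACA hosts did, and 1 of 3 scaRNA hosts did. Beside these counts, 13.3% of all tested genes were called higher. The box H/ACA hosts that rose were SNHG4, EPB41L4A-AS1, SNHG8 and SNHG7, and the scaRNA host was SNHG10. Calls of SNHG8 and SNHG7 were lost in some fits with a library left out. The median log2 fold changes were 0.00695, 0.137 and 0.438, and the ranges overlapped, from -0.545 to 0.174 for box C/D, from -0.244 to 0.453 for box H/ACA and from 0.161 to 0.776 for scaRNA hosts. The SNHG28 row, in which no named snoRNA lay, was placed in none of these. A difference between the kinds was not tested, and this grouping was made after the fold changes were known. With cyclic loess offsets, and with the replicate number as a block, the box C/D host GAS5 also passed. By start sequence, 2 of the 7 tested host genes with a C-and-T tract rose, SNHG4 and SNHG7. Among all 20 tested host genes with a start sequence, 6 rose. The median log2 fold change was 0.0058 with the tract at the RefSeq start read, which is the value of SNHG12, and 0.149 without it there. The ranges overlapped, from -0.545 to 0.453 with the tract and from -0.244 to 0.776 without it. A difference by start sequence was not tested.

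The small RNAs themselves were hardly measured in these libraries. The table held 137 snoRNA or scaRNA rows within the span and on the strand of a host gene, and their counts summed to 228 to 312 a library. Of these rows, 41 lay wholly within an annotated host exon, which can be that of a transcript with a retained intron, and all were at 0 counts in every library. Reads there would also overlap the host exon, and how such reads were counted is not given in the sources used here, so a 0 in these rows does not measure the snoRNA. Of the 22 intronic rows outside SNHG14, 19 had a count. The contrast can be seen within ZFAS1, whose 3 related box C/D snoRNAs are shown as GENCODE 29 gives them, with matches to box C (TGATGA) and box D (CTGA) near the ends in capitals, on the plus strand of chromosome 20.
SNORD12C, intronic, chr20:49278940-49279028: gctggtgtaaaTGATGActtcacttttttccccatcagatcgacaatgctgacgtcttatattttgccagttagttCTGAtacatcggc
SNORD12B, intronic, chr20:49280319-49280409: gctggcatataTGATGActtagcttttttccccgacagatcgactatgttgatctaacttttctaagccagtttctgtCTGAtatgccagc
SNORD12, within an exon, chr20:49280683-49280772: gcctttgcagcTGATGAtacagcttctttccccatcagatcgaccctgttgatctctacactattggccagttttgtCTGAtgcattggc

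SNORD12C had 14, 16 and 4 counts in control and 13, 3 and 20 counts in knockdown libraries, and SNORD12B had 18, 26 and 20 counts and 30, 24 and 19 counts, whereas SNORD12 had 0 in all 6. SNORA24, which lies within an annotated exon of SNHG8, was at 0 counts like the other exonic rows. It is shown because its 131 bases make up the 14.2% of SNHG8 exonic sequence that the annotation also assigns to another gene, with the ACA box near its end in capitals.
SNORA24, chr4:118279190-118279320: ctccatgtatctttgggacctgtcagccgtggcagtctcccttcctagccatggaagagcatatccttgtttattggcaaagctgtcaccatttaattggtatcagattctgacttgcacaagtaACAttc

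No hosted row passed the test in either direction among the 9 that could be tested, by edgeR, with 0 at an unadjusted p below 0.05 and 0 called by DESeq2. SCARNA13, in an intron of SNHG10, had 25, 21 and 21 counts in control and 48, 36 and 31 counts in knockdown libraries. All knockdown libraries were higher, but the log2 fold change of 0.57 ± 0.28 did not pass (adjusted p = 0.154). SNORA73B, in an intron of SNHG3, had 39, 65 and 43 counts and 59, 58 and 77 counts (0.18 ± 0.23, adjusted p = 0.625). SNORA71A, SNORA71B and SNORA71C, in introns of SNHG17, had 14 to 46 counts a library, with adjusted p-values of 0.29 to 0.995. SNORA71A (-0.49 ± 0.32) and SNORA60, in an intron of SNHG11 (-0.54 ± 0.39), were lower in CPM in every knockdown library than in any control library. SNORA26 of DANCR and SNORA60 of SNHG11 had 5 to 15 counts a library (adjusted p = 0.561 and 0.349).

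Several host genes start head to head with a protein-coding gene within 1000 bases. SLC3A2, the amino acid transporter subunit opposite SNHG1 at 188 bases, averaged 358 CPM in control and 359 CPM in knockdown libraries (log2 fold change 0.00 ± 0.06, adjusted p = 0.976, edgeR). ZNFX1, opposite ZFAS1 at 248 bases, had a log2 fold change of -0.10 ± 0.06 (adjusted p = 0.223), and ZBTB37, opposite GAS5 at 800 bases, 0.18 ± 0.09 (adjusted p = 0.169). TRAF7 beside SNHG19 and RPS2 beside SNHG9 were at -0.01 and -0.01 (adjusted p = 0.925 and 0.928). ACAA2, a mitochondrial thiolase gene beside SNHG22, rose by 0.32 ± 0.07 on the log2 scale (adjusted p = 0.00358), and SEMA5A, a semaphorin gene beside SNHG18, fell by 1.48 ± 0.28 (adjusted p = 0.000797), though both of these host genes were below the filter. Distances were taken between the outermost annotated gene starts, so alternative starts were not covered. By this rule none of the 6 host genes that rose had such a neighbour, although SNHG10, EPB41L4A-AS1 and SNHG7 share exonic bases with antisense genes.

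A few more host genes stand in the table under older symbols and were looked up after the values were seen. LRRC75A-AS1, now SNHG29, rose from 250 to 296 CPM in the mean (log2 fold change 0.24 ± 0.05, adjusted p = 0.00194, edgeR). C6orf48 (SNHG32), LINC00888 (SNHG33) and LINC02001 (SNHG30) did not pass, with adjusted p-values of 0.545, 0.224 and 0.407.

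Lists of genes that make, use or degrade host gene products were counted in the same fit, beside 13.3% of all tested genes called higher and 11.9% lower. Of 15 NMD factors, 0 rose and 3 fell by edgeR: SMG9 (log2 fold change -0.43 ± 0.07, adjusted p = 0.000316), a regulator of the SMG1 kinase, SMG5 (-0.34 ± 0.05), which recruits decay enzymes, and MAGOHB (-0.31 ± 0.09), an exon junction complex subunit. EIF4A3, the helicase of that complex, was at -0.15 (adjusted p = 0.052). Of 19 mRNAs known to be regulated by NMD, 3 rose and 8 fell, and the falling genes included the growth arrest gene GADD45B (-0.81 ± 0.10) and the splicing factors SRSF3 (-0.35), TRA2B (-0.32) and SRSF6 (-0.31). The members of that list that rose were GADD45A, RPL3 and RPL12. Counts per gene sum all transcripts of a gene, so they do not separate transcripts that NMD removes from the others.

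Of the 4 core proteins of box C/D particles, NOP56 fell by 0.31 ± 0.05 on the log2 scale and NOP58 by 0.20 ± 0.06 (adjusted p = 0.000219 and 0.0269, edgeR), while SNU13 and the methyltransferase FBL were at -0.06 and 0.05 (adjusted p = 0.448 and 0.54). None of the 4 box H/ACA core proteins passed, DKC1, the pseudouridine synthase, being nearest at -0.13 ± 0.05 (adjusted p = 0.0593), with GAR1, NHP2 and NOP10 at -0.05, -0.05 and 0.00. Of 11 assembly factors, ZNHIT6 fell (-0.34 ± 0.09, adjusted p = 0.00874), and SHQ1, NUFIP1 and TCOF1 were at 0.18, 0.20 and -0.15 with adjusted p-values from 0.0747 to 0.097. In the list for rRNA maturation and RNA polymerase I, POLR1D, a shared polymerase subunit, rose (0.44 ± 0.06), NCL (nucleolin) and UBTF fell (-0.19 and -0.21), and RRN3 was at -0.13 (adjusted p = 0.159), among 12 genes.

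Of 51 protein-coding snoRNA host genes, 6 rose and 7 fell by edgeR, with a median log2 fold change of -0.0105. The smallest adjusted p-values were those of PCNT (-0.39), NOP56 (-0.31), TNPO2 (-0.33) and EEF2 (0.22). Among the deadenylases, CNOT8, the paralog of CNOT7, rose by 0.29 ± 0.06 (adjusted p = 0.00204), and CNOT6 and CNOT6L were at 0.14 and -0.01 (adjusted p = 0.0726 and 0.949). In cytoplasmic 5′-to-3′ decay, the helicase DDX6 fell (-0.32 ± 0.06) as the only call among 9 genes, and LSM1, DCP1B and DCP1A were at -0.37, 0.17 and 0.11 without passing. Of 5 nuclear decay genes, DIS3, an exosome nuclease, rose (0.26) and EXOSC10, another, fell (-0.21), while XRN2 and MTREX were at -0.03 and 0.03. Of 6 regulators of TOP RNAs, MYC rose (0.39 ± 0.05), and MTOR, RPTOR and LARP1 were at -0.12, -0.13 and -0.07 (adjusted p = 0.0988 to 0.306).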

How the data were processed

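The authors deposited raw counts per gene for 6 libraries, without normalization, together with gene lengths. Per the labels, libraries were prepared from total RNA with a NEBNext Ultra kit, and the submitters' processing notes name CASAVA 1.8, fastp, HISAT2 2.0.5, featureCounts 1.5.0-p3 and DESeq2 1.20.0 on GRCh38. Strandedness is not given in the sources used here. The number of count columns of other samples was 0.

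Counts were tested with edgeR 4.0.16 in R 4.3.3 (TMM factors, filterByExpr, quasi-likelihood test, two-sided, Benjamini-Hochberg adjustment over 17574 genes). A gene was called at an adjusted p below 0.05. The standard error was taken as the size of the log2 fold change divided by the root of F. Levels are TMM-normalized CPM, divided by gene length only where genes were compared. The alternatives were DESeq2 1.42.0, RLE factors, cyclic loess offsets, a test of every gene with a count, a minimum of 10 counts per library, the replicate number as a block, and fits without each library in turn. The fits were tested on simulated data. All 58735 gene identifiers were found in GENCODE 29, which gave exon overlaps, positions of hosted snoRNAs and their sequences. RefSeq gave start sequences and names of hosted snoRNAs. A snoRNA host was sorted by the kind that made up most of its named small RNAs.

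The host genes and gene lists were chosen with earlier results of these data known. Every host gene was named: values in each library are given for those with a mean of at least 10 CPM or an adjusted p below 0.05. Of each list, up to 4 genes with the smallest adjusted p were named, and GADD45A, RPL3 and RPL12 were named after their values were seen. Over all tested genes, the deviations of control and knockdown libraries of the same number had correlations of 0.0228, 0.153 and -0.0153. The value for number 2 was the highest of any pair, and that of control 1 with knockdown 3 was 0.132. The main fit did not pair the libraries, and whether those of the same number shared a batch was not tested.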

Additional observations from a re-analysis of the deposited data

How the results depend on the processing

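SNHG4, EPB41L4A-AS1 and SNHG10 were called higher under all 12 alternatives. The number of host genes called higher was 6, and 3 to 5 with 1 library left out, 3 of them without control replicate 3 and without knockdown replicate 3. The number called lower was 0, and 0 to 1 with 1 library left out (SNHG26, without knockdown replicate 2), and 1 with cyclic loess offsets. The median log2 fold change of the host genes stayed between 0.0888 and 0.132 under the alternatives. Over the 134 distinct genes of the fixed lists, 11 were higher and 24 lower. There were 20 higher and 16 lower under cyclic loess offsets, which turned the balance, and 7 to 13 higher and 17 to 25 lower with a library left out. CNOT7 itself counts among the lower list genes in each fit. Of all genes, 2329 were higher and 2095 lower, with 1626 to 2323 higher and 1367 to 2219 lower when a library was left out, the lowest number of lower calls without control replicate 3. With the replicate number as a block, 9 host genes were higher, with GAS5, DANCR and SNHG3 added, and 2 lower (SNHG17 and SNHG26). In that fit 22 list genes were higher and 39 lower, and 3202 and 3306 of all genes were called. The main fit did not pair the libraries. Those of number 2 correlated best with each other, but not every library correlated best with its own number. The cause of these shifts was not tested. Counts of under 10 a library limited the tests of hosted snoRNAs.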
